A study of Mus musculus with 4 samples.

Results

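Astrocytes are the glial cells that wrap synapses and blood vessels in the brain. Their endfeet on vessels carry water channels and ion transporters, gap junctions join them into a network, and the proteins they secrete act on synapses and on the extracellular matrix. The 50 genes described here are known for high expression in astrocytes and were sorted by function into 8 groups. The list was chosen with earlier results of these data known, so its counts and medians below are descriptions and not tests. All 50 were found on the array and passed the filter on dim signal, out of 15759 genes tested, and every one was well above background in both dye channels on all 4 arrays.

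The study compared cerebral cortex of mice lacking Ndrg2 with that of wild type mice. Ndrg2 encodes a protein of the N-Myc downstream regulated family, which in brain is made mostly by astrocytes. Both groups were adult males aged 3 months on a C57BL/6N background, and the knockout group is labelled Ndrg2-/-, with no other allele or agent named. Each of 4 two-colour arrays set 1 knockout RNA (Cy5) against 1 wild type RNA (Cy3). Whether each RNA came from a single animal or a pool is not stated, so the p-values measure only the spread between these samples. The dyes were never exchanged, so genotype and dye cannot be told apart.

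The targeted gene itself went against its label. The log2 ratio of labelled knockout over wild type for Ndrg2 was 0.11, 0.37, 0.40 and 0.38 on arrays 1 to 4, above 0 on every array (mean 0.32 ± 0.14 SD, n = 4, limma adjusted p = 0.0173). The position of its probe relative to the deleted part was not examined here, and the direction of every value below rests on the labels. "Higher" and "lower" below always mean in the samples labelled knockout. Each value is a log2 ratio per gene from its brightest probe, positive where the labelled knockout gave more signal. A gene was called where that probe had an adjusted p under 0.05 in limma's test. The adjustment (Benjamini-Hochberg) ran over all 27664 kept probes, before 1 probe was taken for each of the 15759 genes.

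Of the 50 astrocyte genes, 8 were called higher and 1 was called lower, and 41 were not called. Among all genes tested, 15% were called, 9.12% higher and 5.84% lower, so the members' total stood near the background, and the split leaned towards higher. The higher genes were Sparcl1, Cxcl14, Clu and Sparc among the secreted proteins, Nfia and Nfib among the transcription factors, the mitochondrial glutamate carrier Slc25a18 and the sodium pump subunit Atp1b2. The lower gene was Dag1, which encodes dystroglycan, the receptor that ties endfeet to the basal lamina of vessels. All 9 changes were small, from -0.17 to 0.29 on the log2 scale. A further 7 members had adjusted p-values between 0.05 and 0.07 in limma and are given below with their values.

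The median over the 50 genes was 0.07, against 0.01 over all genes. By array the members' median was 0.06, 0.04, 0.10 and 0.10, and each of these lay above the array's median over all genes, which was 0.01 on arrays 1 to 3 and 0.02 on array 4. The mean was above 0 for 35 members and below 0 for 15. Counted by array, 19 members lay above 0 on all 4 arrays, beside 24.1% of all genes, and 5 lay below 0 on all 4, beside 18.6%. No member passed the study's criterion of 1.5 fold on all 4 arrays, which 0.0952% of all genes passed. Only Gfap, Aqp4 and Hes5 passed it on any single array. The plot of members by function shows the value on each array.

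**Figure D1:**
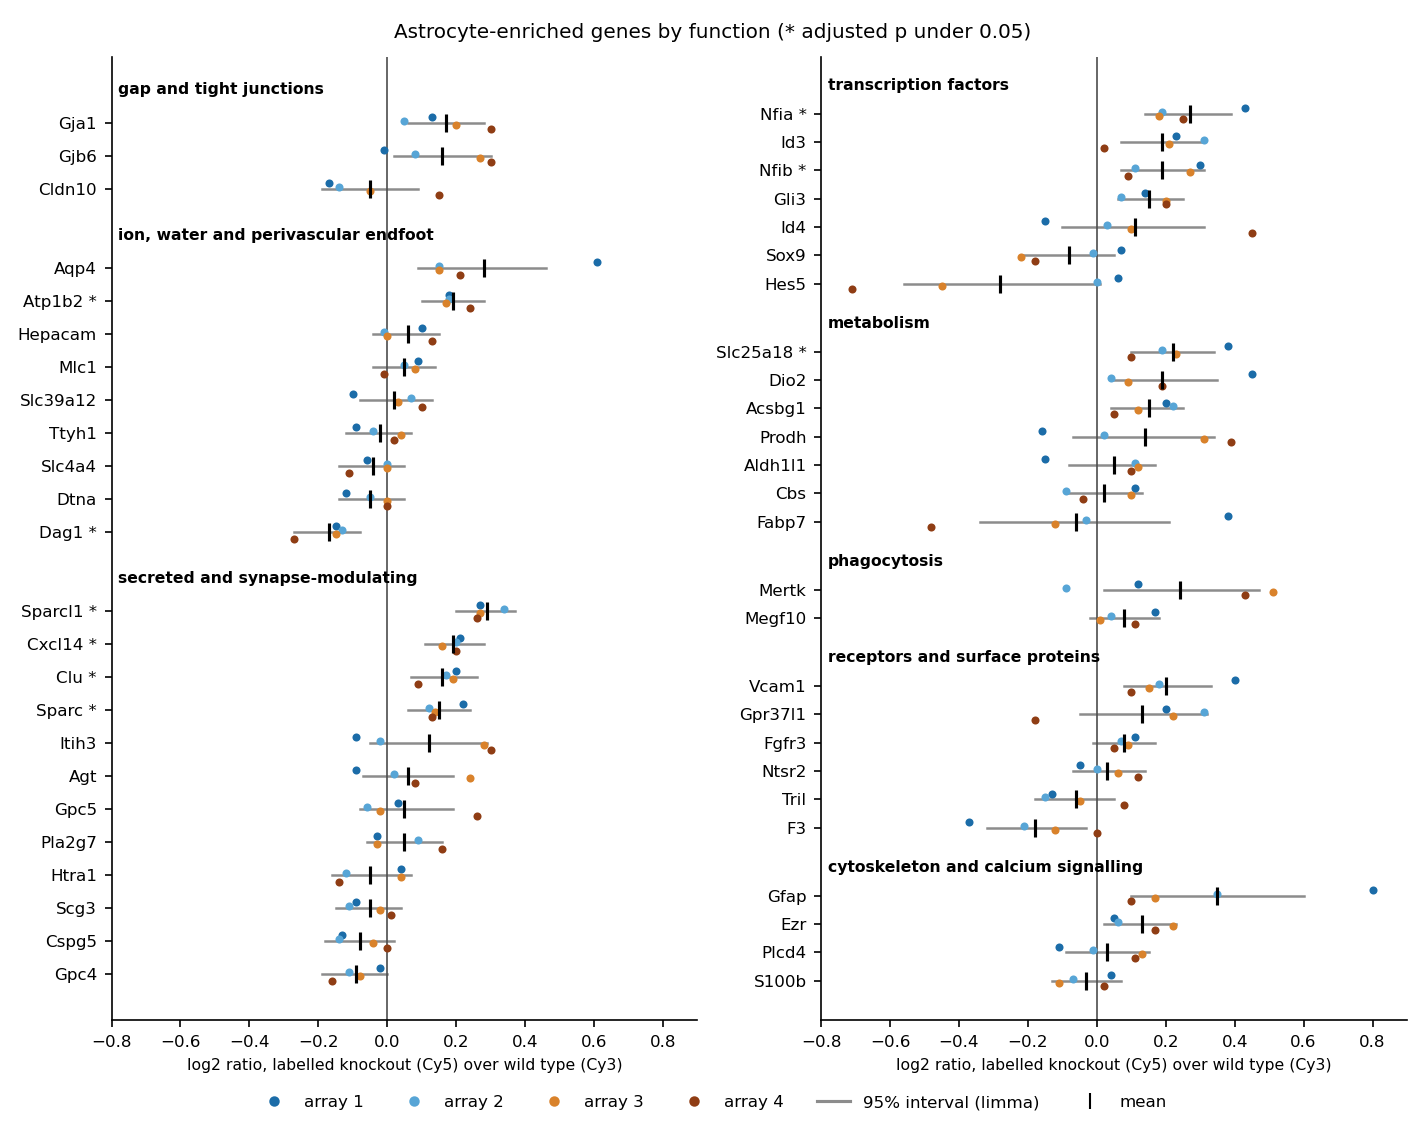
Log2 ratio of labelled knockout over wild type (horizontal axis) for each of the 50 genes, grouped by function. Coloured points are the 4 arrays, offset vertically for visibility, black ticks the mean and grey lines limma's 95% interval. The 4 points of Sparcl1, Cxcl14 and Atp1b2 lie close together, whereas those of Gfap, Hes5 and Fabp7 are spread widely.

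The secreted and synapse-modulating group, the largest, held the most calls, with 4 of 12 genes higher, none lower and a group median of 0.06. Of all genes tested, 9.12% were called higher. By signal, 8 of the 12 were in the brightest decile of all genes, where 13.8% of all genes were called higher. Sparcl1 encodes hevin, a matricellular protein that promotes the formation of excitatory synapses. Its log2 ratio was 0.27, 0.34, 0.27 and 0.26, nearly the same on all 4 arrays (mean 0.29 ± 0.03 SD, n = 4, limma adjusted p = 0.00678). The signal behind it was 17.17, 17.18, 17.08 and 16.91 in wild type and 17.44, 17.52, 17.35 and 17.17 in labelled knockout, in log2 units. Every labelled knockout value was the higher of its pair, although the ranges of the groups overlapped slightly, between 17.17 and 17.18.

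Sparc, the related matrix protein that counteracts hevin at synapses, was also higher, with 0.22, 0.12, 0.14 and 0.13 on the 4 arrays (mean 0.15 ± 0.05 SD, limma adjusted p = 0.0432). On this probe array 1 stood above the other 3, which were close to one another. A second, dimmer Sparc probe averaged 0.08 ± 0.09 SD and was not called (limma adjusted p = 0.284). Clu, the secreted chaperone clusterin, gave 0.20, 0.17, 0.19 and 0.09 (mean 0.16 ± 0.05 SD, limma adjusted p = 0.0366), with array 4 the lowest. Cxcl14, a chemokine, gave 0.21, 0.20, 0.16 and 0.20 (mean 0.19 ± 0.02 SD, limma adjusted p = 0.0199), the tightest of the 9 called genes.

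The other 8 secreted genes had means from -0.09 to 0.12 and were not called. Itih3, which binds hyaluronan in the matrix, had -0.09 and -0.02 on arrays 1 and 2 and 0.28 and 0.30 on arrays 3 and 4, so the arrays fell in pairs on either side of 0. Gpc4, a glypican that promotes the recruitment of glutamate receptors to young synapses, was at -0.02, -0.11, -0.08 and -0.16 (mean -0.09 ± 0.06 SD, limma adjusted p = 0.163). Cspg5, a brain proteoglycan, also lay at or below 0 on every array (mean -0.08 ± 0.07 SD). The angiotensin precursor Agt averaged 0.06, the phospholipase Pla2g7 0.05, and the protease Htra1 and the granin Scg3 each -0.05. The glypican Gpc5 was near 0 on arrays 1 to 3 (0.03, -0.06 and -0.02) and at 0.26 on array 4. The probes of Gpc4 and Agt were dim, with 86.7% and 82.1% of genes brighter.

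Among the transcription factors 2 of 7 were higher and none lower, beside 9.12% and 5.84% of all genes. The group median was 0.15. Nfia and Nfib encode nuclear factor I proteins, which switch neural precursors towards the astrocyte fate and bind glial promoters. Nfia had 0.43, 0.19, 0.18 and 0.25, above 0 throughout and highest on array 1 (mean 0.27 ± 0.12 SD, limma adjusted p = 0.0208). Nfib had 0.30, 0.11, 0.27 and 0.09, about 0.1 on arrays 2 and 4 and nearer 0.3 on the other two (mean 0.19 ± 0.11 SD, limma adjusted p = 0.0473).

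Not called were Gli3, the Hedgehog effector, at 0.14, 0.07, 0.20 and 0.20 (mean 0.15 ± 0.06 SD, limma adjusted p = 0.0503) and Id3, an inhibitor of basic helix-loop-helix factors, at 0.23, 0.31, 0.21 and 0.02 (mean 0.19 ± 0.12 SD, limma adjusted p = 0.0524). Its relative Id4 ranged from -0.15 to 0.45 (mean 0.11 ± 0.25 SD). Sox9, a factor that sets the glial fate, averaged -0.08 ± 0.14 SD. Hes5, a target of Notch signalling, differed most between arrays. It was at 0.06 and 0.00 on arrays 1 and 2 and at -0.45 and -0.71 on arrays 3 and 4, so its mean of -0.28 ± 0.37 SD, the lowest of the 50, came from arrays 3 and 4 alone (limma adjusted p = 0.171).

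Since both called factors belong to the nuclear factor I family, the 250 bases before each start site were read from RefSeq promoters on GRCm38.p6. The letters searched on both strands were TTGGC, the core recognised by nuclear factor I, TTCNNNGAA for STAT factors, and GTGGGAA for RBPJ, the DNA-binding partner of Notch. Of the 50 members, 40 had a promoter entry. The nuclear factor I letters occurred in 19 of 40 (47.5%), beside 45.3% of 27025 genes with an entry. The STAT letters occurred in 6 of 40 (15%), beside 8.13%, and the RBPJ letters in 1 of 40 (2.5%), beside 6.18%. Of the 9 called members 5 had an entry, and 2 of these held these letters. These were Cxcl14, which was higher, and Dag1, which was lower. Hes5 was the single member with the RBPJ letters, which began at positions -226 and -83 from its start site. The matches are descriptions of letters, with no measure of binding. The 3 promoters are printed 5′ to 3′ on the strand of the gene, with 1 motif in capitals (on either strand), to show how the matches lie in a higher gene, a lower gene and the most variable factor. The capitals mark the nuclear factor I letters in Cxcl14 and Dag1 and the RBPJ letters in Hes5. Left in lower case are a STAT match at -191 in Cxcl14 and nuclear factor I letters at -160 and -96 in Hes5. Cxcl14 lies at chr13:56296552-56296801 on the minus strand, Dag1 (the first of its entries) at chr9:108263959-108264208 on the minus strand, and Hes5 at chr4:154960673-154960922 on the plus strand.
Cxcl14: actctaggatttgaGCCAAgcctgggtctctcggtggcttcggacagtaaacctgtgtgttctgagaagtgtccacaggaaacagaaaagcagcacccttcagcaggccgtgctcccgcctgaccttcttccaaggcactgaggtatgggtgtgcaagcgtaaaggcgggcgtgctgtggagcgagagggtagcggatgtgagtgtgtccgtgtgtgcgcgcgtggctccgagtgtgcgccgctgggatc
Dag1: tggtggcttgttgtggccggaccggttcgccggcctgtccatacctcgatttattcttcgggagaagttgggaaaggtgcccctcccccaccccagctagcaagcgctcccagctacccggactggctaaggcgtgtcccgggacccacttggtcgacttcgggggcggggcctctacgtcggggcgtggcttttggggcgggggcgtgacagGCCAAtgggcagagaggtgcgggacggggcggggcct
Hes5: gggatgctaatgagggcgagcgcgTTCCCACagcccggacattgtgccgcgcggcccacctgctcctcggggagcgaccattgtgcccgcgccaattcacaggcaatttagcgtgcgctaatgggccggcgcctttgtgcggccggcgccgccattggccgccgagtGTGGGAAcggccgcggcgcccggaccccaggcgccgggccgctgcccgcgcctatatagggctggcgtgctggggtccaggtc

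In the metabolic group 1 of 7 genes was higher and none was lower, with a median of 0.14. The shares over all genes were 9.12% higher and 5.84% lower. Slc25a18 carries glutamate into mitochondria, and its ratios were 0.38, 0.19, 0.23 and 0.10 (mean 0.22 ± 0.12 SD, limma adjusted p = 0.0332). All 4 lay above 0, with array 1 the highest and array 4 the lowest. Not called were Acsbg1, an acyl-CoA synthetase (mean 0.15 ± 0.08 SD, limma adjusted p = 0.0683), and Dio2, the deiodinase that activates thyroid hormone (mean 0.19 ± 0.18 SD), which was at 0.45 on array 1 and at or below 0.19 on the others. Prodh, which breaks down proline, went from -0.16 and 0.02 on arrays 1 and 2 to 0.31 and 0.39 on arrays 3 and 4. Aldh1l1, a folate enzyme widely used to mark astrocytes, was at -0.15 on array 1 and at 0.11, 0.12 and 0.10 on the others (mean 0.05 ± 0.13 SD). Cbs, of the transsulphuration pathway, averaged 0.02. Fabp7, the fatty acid binding protein of radial glia, had 0.38, -0.03, -0.12 and -0.48 (mean -0.06 ± 0.35 SD), so the arrays did not share a direction.

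The group for ion and water transport and the perivascular endfoot had the only lower call. In it 1 of 9 genes was higher and 1 lower, beside 9.12% and 5.84% of all genes, and the median was 0.02. Atp1b2 encodes the glial subunit of the sodium pump, also known as an adhesion molecule, and had 0.18, 0.18, 0.17 and 0.24 (mean 0.19 ± 0.03 SD, limma adjusted p = 0.0217). Dag1 had -0.15, -0.13, -0.15 and -0.27, below 0 throughout (mean -0.17 ± 0.06 SD, limma adjusted p = 0.0362). For both genes array 4 lay farthest from 0 and the other 3 arrays were close to one another.

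Aqp4, the water channel that the dystroglycan complex holds at the endfoot, was not called. Its ratios were 0.61, 0.15, 0.15 and 0.21, so its mean of 0.28 ± 0.22 SD was raised by array 1 (limma adjusted p = 0.058). The dystrobrevin gene Dtna, of the same complex, averaged -0.05 ± 0.06 SD. Hepacam and Mlc1, partners in an adhesion complex at astrocyte contacts, averaged 0.06 and 0.05. The zinc transporter gene Slc39a12, the chloride channel gene Ttyh1 and the bicarbonate transporter gene Slc4a4 lay between -0.04 and 0.02.

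No gap or tight junction gene was called, and the 3 members had a median of 0.16. Gja1, the main astrocyte connexin, was above 0 on every array at 0.13, 0.05, 0.20 and 0.30 (mean 0.17 ± 0.10 SD, limma adjusted p = 0.0598). Gjb6, the second astrocyte connexin, was at -0.01, 0.08, 0.27 and 0.30 (mean 0.16 ± 0.15 SD, limma adjusted p = 0.111). The claudin gene Cldn10 was at -0.17, -0.14, -0.05 and 0.15 (mean -0.05 ± 0.15 SD). All 3 junction genes were highest on array 4.

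Of the 6 receptor and surface protein genes none was called, and the group median was 0.06. Vcam1, a cell adhesion molecule, had 0.40, 0.18, 0.15 and 0.10 (mean 0.20 ± 0.13 SD, limma adjusted p = 0.0508). F3, the tissue factor that starts coagulation, had -0.37, -0.21, -0.12 and 0.00 (mean -0.18 ± 0.15 SD, limma adjusted p = 0.0953). These were the highest and lowest of the group, and both were farthest from 0 on array 1. A second, dimmer probe averaged 0.11 for Vcam1 (limma adjusted p = 0.16) and -0.04 for F3 (limma adjusted p = 0.707). Gpr37l1, a receptor for prosaposin peptides, was between 0.20 and 0.31 on arrays 1 to 3 and at -0.18 on array 4. The growth factor receptor Fgfr3 averaged 0.08 ± 0.03 SD, the neurotensin receptor Ntsr2 0.03 ± 0.07 SD and Tril, a partner of Toll-like receptors, -0.06 ± 0.10 SD.

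Neither phagocytosis gene was called. Mertk, a receptor for dying cells and synaptic debris, gave 0.12, -0.09, 0.51 and 0.43 (mean 0.24 ± 0.28 SD, limma adjusted p = 0.13). Megf10, which also takes part in synapse removal, gave 0.17, 0.04, 0.01 and 0.11 (mean 0.08 ± 0.07 SD, limma adjusted p = 0.233).

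In the cytoskeleton and calcium signalling group none of 4 genes was called from its brightest probe, and the median was 0.08. Gfap, the intermediate filament protein of astrocytes, had the highest mean of the 50, with 0.80, 0.35, 0.17 and 0.10 (mean 0.35 ± 0.32 SD, limma adjusted p = 0.0687). All values were above 0, and array 1 was the highest by far. The linker protein gene Ezr was above 0 on all 4 arrays (mean 0.13 ± 0.08 SD), the phospholipase gene Plcd4 averaged 0.03 ± 0.11 SD, and the calcium-binding marker S100b stayed near 0 at 0.04, -0.07, -0.11 and 0.02 (mean -0.03 ± 0.07 SD).

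For Gfap the call depended on the probe, as the plot of single probes shows. Its second probe, annotated to another transcript record, was at 0.92, 0.68, 0.42 and 0.44 (mean 0.62 ± 0.23 SD) and was called at a limma adjusted p of 0.00693. The third probe was at 0.19, 0.07, 0.21 and 0.24 (mean 0.18 ± 0.07 SD) and was called at 0.0364. All 3 Gfap probes were above 0 on every array. The second kept its call in all 11 alternatives tried for it, at 0.51 to 0.71, whereas the third lost it with any 1 array left out and was at -0.28 without loess. Averaged over its probes, Gfap stood at 0.38 and was called (limma adjusted p = 0.0173). The 5 probes of Nfib averaged 0.19, 0.09, 0.22, 0.06 and -0.05 in order of brightness, and the third was also called (limma adjusted p = 0.0168). Averaged over them, Nfib was at 0.10 and not called (limma adjusted p = 0.145). The 3 probes of Ttyh1 averaged -0.02, -0.15 and 0.13, and the second was called lower (limma adjusted p = 0.0432). In all, 14 members had several tested probes, and 17 of the 20 further probes had the sign of the brightest one.

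**Figure D2:**
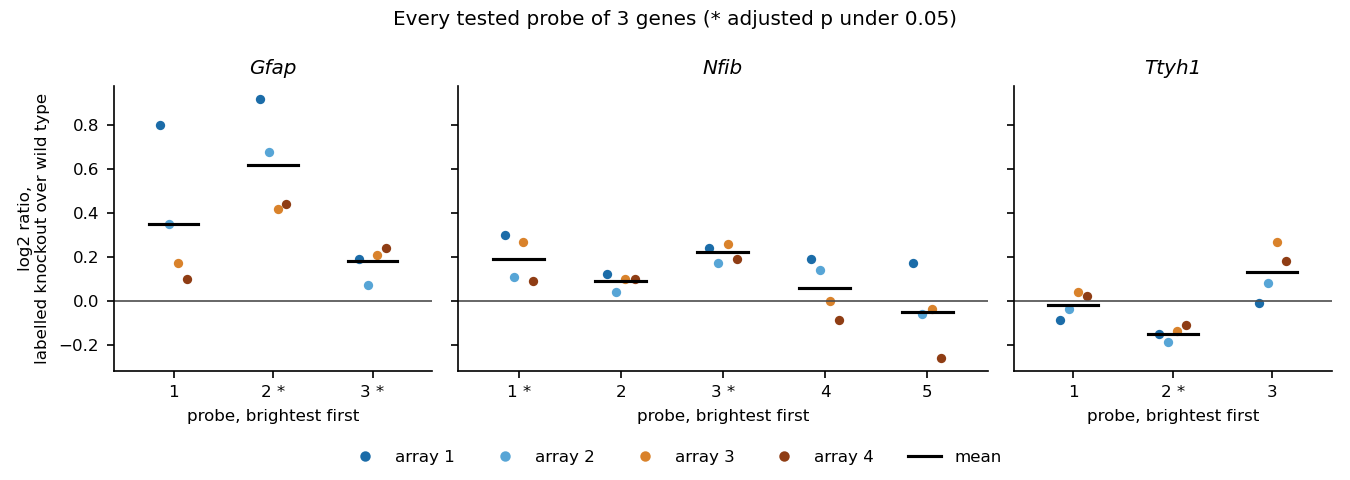
Log2 ratio of labelled knockout over wild type (vertical axis) for every tested probe of Gfap, Nfib and Ttyh1, brightest first. Points are the 4 arrays and bars the mean. The Gfap probes differ in size and share a direction, and the probes of Nfib and Ttyh1 lie on both sides of 0.

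With any 1 array left out, 1 to 7 members were called higher and none lower, while the share of all genes called fell from 15% to between 2.87% and 9.8%. Among the 9 called members, only Sparcl1 was called each time (limma adjusted p from 0.0202 to 0.0469). The ratios themselves moved little where the calls were lost, from 0.17 to 0.20 for Atp1b2, 0.19 to 0.20 for Cxcl14 and -0.19 to -0.14 for Dag1, and moved more for Slc25a18 (0.17 to 0.27), Nfia (0.21 to 0.29) and Nfib (0.16 to 0.23). Without array 4, Cxcl14, Clu, Nfia and Slc25a18 also stayed called, and Id3 and Gpr37l1 were called in addition. Computed from the scanner software's processed signals, 3 members were called higher (Atp1b2, Cxcl14 and Nfia). There Sparcl1 was at 0.13 (limma adjusted p = 0.0885), Clu at 0.04 (limma adjusted p = 0.541) and Sparc at 0.12 (limma adjusted p = 0.111), while Nfib, Slc25a18 and Dag1 kept values of 0.23, 0.24 and -0.17 without a call, and Gpc4 was called lower at -0.27. Without loess, with each array centred on its median only, 35 members were called higher and 2 lower (Gpc4 at -0.49 and Agt at -0.23), and 61.9% of all genes were called. Dag1 was not among them, as it moved to -0.04 there (limma adjusted p = 0.402). The probes of Gpc4 and Agt were dim, with 86.7% and 82.1% of genes brighter in the main processing.

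The members' ratios were more alike within some pairs of arrays than within others. The correlation of log2 ratios across the 50 genes was 0.686 between arrays 1 and 2 and 0.727 between arrays 3 and 4. Between these pairs it was 0.481 for arrays 2 and 3, 0.297 for arrays 1 and 3, 0.207 for arrays 2 and 4 and 0.034 for arrays 1 and 4. Across all genes it was 0.713 for arrays 1 and 2, 0.589 for arrays 3 and 4, and between 0.407 and 0.481 for the others. These are descriptions across genes, which are not independent replicates, and all 4 arrays share a slide and a dye order. The median SD of a member over arrays was 0.101, against 0.089 over all genes. Prodh, Itih3, Mertk and Gjb6 were higher on arrays 3 and 4 than on arrays 1 and 2, and Hes5 and Sox9 were lower there.

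Signal strength moved with the calls. The 16 members whose probes were in the brightest decile of all genes included 6 of the 8 higher ones and no lower one (37.5% called higher), and 13.8% of all genes in that decile were called higher. Of the 34 other members, 2 were higher (Nfia and Slc25a18) and 1 lower (Dag1). These are 5.88% and 2.94%, beside 8.59% and 5.42% of all genes outside that decile. Sparcl1 and Clu were in the brightest percentile, where 52.2% of all genes were called higher and the median over all genes was 0.18. The values of these 2 genes, 0.29 and 0.16, stand beside that median, and the part of signal strength in their calls was not tested. Signal strength here describes probes and does not rank genes by expression.

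**Figure D3:**
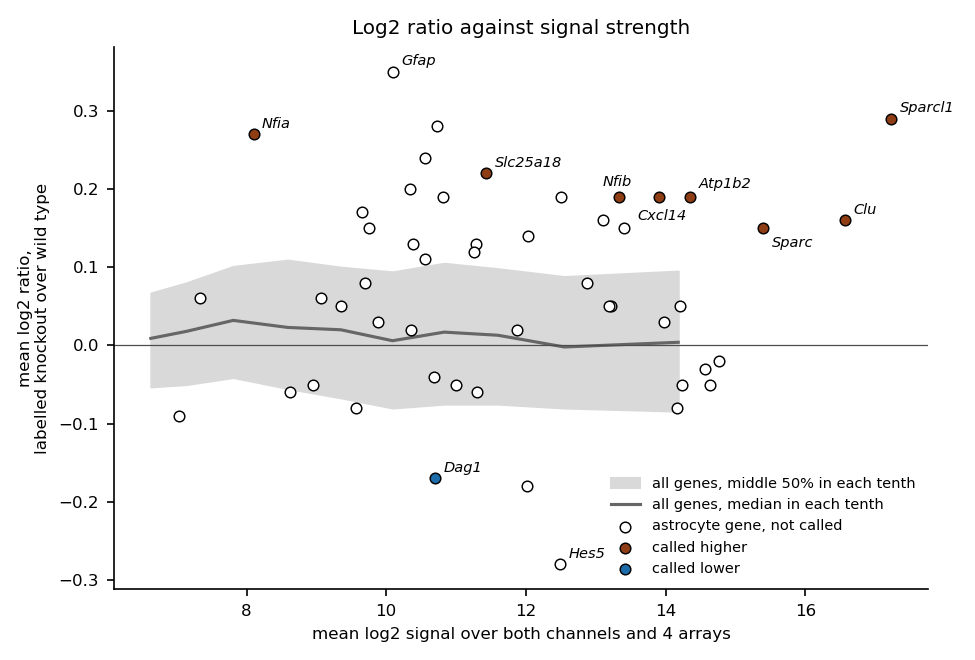
Mean log2 ratio of labelled knockout over wild type (vertical axis) against mean log2 signal over both channels and the 4 arrays (horizontal axis). Circles are the 50 astrocyte genes, filled where called, and the line and band are the median and the middle 50% of all genes in each decile of signal. Sparcl1 and Clu lie farthest to the right, and Nfia and Slc25a18 lie among dimmer probes.

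Further genes of the same 8 functions were described beside the members. Of 83 such genes that were not members, 81 were tested, 15 were higher and 2 lower, beside 9.12% and 5.84% of all genes, and their median was 0.10, against 0.01 over all genes. In the cytoskeleton group the intermediate filament genes Nes (0.77, 0.49, 0.23 and 0.32, mean 0.45 ± 0.24 SD, limma adjusted p = 0.0183) and Vim (0.43, 0.28, 0.20 and 0.82, mean 0.43 ± 0.28 SD, limma adjusted p = 0.0281) were higher and the phospholipase gene Plcd1 was lower, at -0.19. Among junction genes the connexin gene Gjb2 had 0.64, 0.61, 0.43 and 0.55 (mean 0.56 ± 0.10 SD, limma adjusted p = 0.00103) and the scaffold gene Tjp1 averaged 0.18. Gjb2 is also made by meningeal cells, and it lies on chromosome 14 like Ndrg2.

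Among endfoot genes the cation channel gene Trpv4 was higher (0.21, 0.14, 0.40 and 0.65, mean 0.35 ± 0.23 SD, limma adjusted p = 0.0342). Of 11 further secreted genes tested, the thrombospondin genes Thbs4 (0.83, 0.57, 0.18 and 0.68, mean 0.57 ± 0.28 SD, limma adjusted p = 0.0144) and Thbs2 (mean 0.20) and the lipoprotein gene Apoe (mean 0.25) were higher, and the Wnt inhibitor gene Wif1 was lower, at -0.19. Of 12 further metabolic genes 4 were higher, namely Aldoc of glycolysis (0.22, 0.22, 0.25 and 0.26, mean 0.24 ± 0.02 SD, limma adjusted p = 0.0113), Bcat2 of branched-chain amino acid breakdown (0.42, 0.37, 0.08 and 0.23, mean 0.27 ± 0.15 SD, limma adjusted p = 0.0286), the metallothionein gene Mt3 (mean 0.25) and glutamine synthetase, Glul (mean 0.18). Among further transcription factors 1 of 12 was higher, Lhx2 (0.33, 0.13, 0.11 and 0.18, mean 0.18 ± 0.10 SD, limma adjusted p = 0.0468). Of the further phagocytosis genes 1 of 10 was higher, the integrin gene Itgb5 (0.31, 0.13, 0.21 and 0.19, mean 0.21 ± 0.08 SD, limma adjusted p = 0.0248), and of 12 further receptor genes none was called. Beside the counts of these further lists, 9.12% of all genes were called higher and 5.84% lower. Of the 12 further metabolic genes, 5 were in the brightest decile, where 13.8% of all genes were called higher. Apoe and Aldoc were, like Sparcl1 and Clu, in the brightest percentile, where 52.2% of all genes were called higher. The probes of Thbs2 and Wif1 were dim, with 86.2% and 85.2% of genes brighter.

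Markers of other cells moved too, and their part in the values above was not tested. Of 14 meningeal markers 11 were higher and none lower, with a median of 0.43 (0.45, 0.44, 0.24 and 0.57 by array), and their summed signal was higher by 0.21 to 0.70 on the log2 scale. The matrix gene Lum, at 0.70, 0.43, 0.63 and 0.60, had the highest mean among them (0.59 ± 0.11 SD, limma adjusted p = 0.00112). Of the microglia markers 3 of 8 were higher (median 0.05), of the neuronal markers 2 of 10 (median 0.07), and of the endothelial and mural markers 1 of 8 each (medians 0.00 and 0.15). Of 8 oligodendrocyte markers 1 was lower, Ermn at -0.29, and none of the markers tested for oligodendrocyte precursors (5) or for choroid plexus and ependyma (5 of 7 listed) was called. Beside these marker counts, 9.12% of all genes were called higher and 5.84% lower. Itgam and Snap25, among the higher markers, were in the brightest percentile, where 52.2% of all genes were called higher. The summed signal of the 50 astrocyte genes was higher by 0.12 to 0.14 on the log2 scale on every array. The sums of the microglia markers ran from 0.15 to 0.24 and those of the oligodendrocyte precursor markers from 0.09 to 0.25. Those of neurons ran from -0.01 to 0.10, endothelium -0.08 to 0.15, mural cells 0.00 to 0.84, choroid plexus and ependyma -0.10 to 0.18 and oligodendrocytes -0.35 to -0.01. Among the microglia markers, Itgam had by far the brightest probe (mean log2 signal 15.96, next Csf1r at 14.14) and was at 0.24. Sparcl1, Clu and Sparc made up 47.3% to 49.1% of the astrocyte sum in wild type. Without these 3, left out after the values were seen, it was higher by 0.02 to 0.06. In bulk cortex, more cells of a type and more RNA per cell cannot be told apart.

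**Figure D4:**
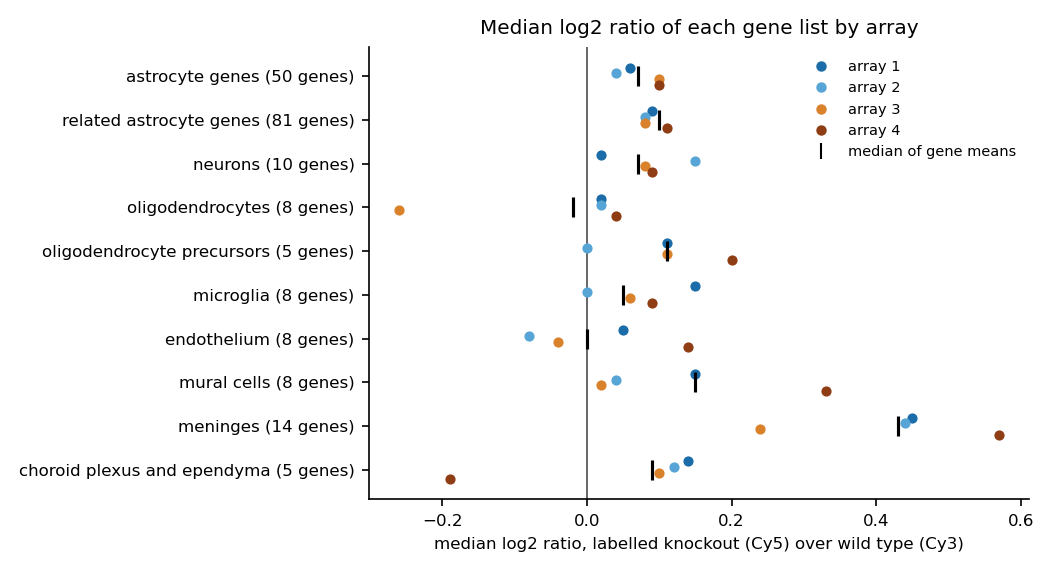
Median log2 ratio of labelled knockout over wild type (horizontal axis) of each gene list on each array (coloured points, offset vertically) and of the genes' means (black ticks). The astrocyte genes lie between 0.04 and 0.10 and the meningeal markers between 0.24 and 0.57.

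Ndrg2 lies on mouse chromosome 14, as do 5 of the 50 members. Of these Clu, 144 tested genes from Ndrg2 in the order of the reference, was called higher, and Itih3, Gjb6, Gpc5 and Cldn10 were not called. The median of the 5 was 0.12, against 0.06 for the 45 members elsewhere. On chromosome 14, 24.3% of 543 genes were called in either direction, beside 14.6% of 15216 genes on other chromosomes.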

How the data were processed

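Cortical RNA was measured on 4 Agilent two-colour arrays, all on 1 slide. Spots were read by the authors in Agilent Feature Extraction (the file headers give version 11.0.1.1, the submitters' processing notes 10.7.3.1). The raw intensity used here is each channel's median pixel signal, per the file headers, which also describe a processed signal and a log10 ratio (Cy5 over Cy3). The log2 ratios per probe that the authors deposited served as an alternative.

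The members and all gene lists were chosen with earlier results of these data known. In R 4.3.3, with limma 3.58.1 and the package data.table in version 1.17.8, ratios were made anew by normexp background correction (offset 50) and loess within each array, with 1377 control spots at weight 0. The median pixel signal took the place of the mean signal first planned. Each array had 43020 further spots. Outlier flags removed 802 of them in all, and no spot was saturated. Of 39429 probes, 27664 were kept, as well above background in at least 1 channel on all 4 arrays. Probes were named by transcript accession through RefSeq on GRCm38.p6, and the brightest probe stood for its gene. The mean ratio was tested against 0 with limma (3 residual degrees of freedom). Named with full values were the called members, the highest and lowest member of each function group, the members on chromosome 14 and the called gene of the largest size in each further list. Up to 3 called genes of each further list were named. Other genes were named after their values were seen. Scripts were tested on simulated data. With 4 arrays, their number limits the precision. One further called gene is not reported here.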

Additional observations from a re-analysis of the deposited data

Results flagged for a closer look

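Of 60 items checked (the 50 members, Ndrg2 and the medians of all members and of each of the 8 groups), 6 had 1 array far from the other 3, and chance gives about 1 in 20 such groups. Aqp4 was at 0.61 on array 1, where the next value was 0.21. Sparc was at 0.22 on array 1, with 0.14 next, and Aldh1l1 was at -0.15 on array 1, with 0.10 next. Atp1b2 was at 0.24 on array 4, with 0.18 next, and Dag1 at -0.27 on array 4, with -0.15 next. Ndrg2 itself was at 0.11 on array 1, where the next value was 0.37.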

How the results depend on the processing

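No called member changed direction under any of 12 alternatives. The count of members called higher, 8, became 3 with the processed signals and 3 with the authors' deposited table, whose member ratios were the same. With median centring and no loess it became 35, with 2 lower, a median of 0.26 and 1 gene past 1.5 fold on all 4 arrays. Over all genes, 2357 calls became 1329, 1329 and 9756 in these 3 alternatives, and 452 to 1544 with 1 array left out. With limma's variance allowed to follow signal strength, 12 members were called higher, adding Aqp4, Id3, Acsbg1 and Vcam1, and 2891 of all genes were called. The count was 9 with probes averaged and 9 with both channels required well above background. It was 7 with no background subtraction and 6 with no filter on dim probes. With 1 array left out, members called higher ranged from 1 to 7, lower from 0 to 0, the median from 0.06 to 0.09, and genes past 1.5 fold on every array from 0 to 0. Without loess the sign turned for Cldn10 (0.09), Slc4a4 (0.09), Ttyh1 (0.28), Htra1 (0.22), Agt (-0.23), Cspg5 (0.19), Scg3 (0.24), Fabp7 (0.09), S100b (0.26), the third Gfap probe (-0.28) and the second Ttyh1 probe (0.11). With 1 array left out the sign turned for Ttyh1 (-0.04 to 0.00), Cbs (-0.01 to 0.06), S100b (-0.05 to 0.00), Plcd4 (0.00 to 0.08), Slc39a12 (0.00 to 0.06), Gpc5 (-0.02 to 0.09), Id4 (-0.01 to 0.19) and Fabp7 (-0.21 to 0.08). The cause was not tested. Nfib lost its call with no background subtraction (limma adjusted p = 0.0509), and Nfib (0.0545) and Sparc (0.0577) with no filter on dim probes. Averaging probes ended the calls of Nfib and Sparc. The limma test was itself paired, because the ratio on each array is the difference within a pair, and no further pairing was possible.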
